A study of Mus musculus with 3 samples.

Results

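The genes described here are 9 receptors, ligands and adhesion molecules that bring lymphocytes and dendritic cells to the small intestine and hold them at its epithelium: Ccr9, Ccl25, Itgae, Itgb7, Itga4, Cdh1, Cxcr6, S1pr1 and Gpr18. They were taken by symbol from the 32285 genes of the deposited tables, and all 9 were found. The tables hold single-cell transcript counts (10x, 3′ v3, a chemistry that counts the 3′ ends of transcripts as unique molecular identifiers, UMIs) of immune cells from the duodenum of C57B6/J mice, male per the series title. Duodenal tissue was taken 30 days after the gut wall was injected with saline or with mouse recombinant preformed fibrils of alpha-synuclein (PFF), a protein that aggregates in Parkinson's disease. Saline 1 and PFF 1 were labelled batch 1, and saline 2 was labelled batch 2. Each cell suspension was split, with CD45+ cells sorted from the first portion and CD11b beads used on the other, and the portions were rejoined for loading. How old the mice were and how many went into each library is not stated in the sources used here, and no label says that the libraries came from separate animals, so p-values measure only the spread between these libraries.

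The libraries shared cells. Each saline table joined 4 wells, and 3 of these, with 1509, 3648 and 8732 cells, held the same barcodes and identical counts in both tables. These 13889 cells were counted once and are called shared saline, while saline 1 and saline 2 stand for the remaining well of each table. That left 40606 cells, of which 33284 passed the filter (at least 500 UMIs, at least 200 genes, at most 15% mitochondrial UMIs): 5459 in saline 1, 4332 in saline 2, 12263 in PFF 1 and 11230 in shared saline. Median depth was 3241, 10130, 9111 and 5850 UMIs per cell in that order, and total depth was between 20788920 and 142955760 UMIs per library. Barcode letters that recurred in another library were few, at most 119 between PFF 1 and saline 2. Although labelled immune cells, the suspensions held epithelial cells: 0.623% of kept cells in saline 1, 10.2% in saline 2, 3.04% in PFF 1 and 8.37% in shared saline.

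T cells that are primed in gut-draining lymph nodes can acquire the chemokine receptor CCR9 and the integrin alpha4-beta7 there. CCR9 follows CCL25, made by small intestinal epithelium, and alpha4-beta7 binds MAdCAM-1 on gut vessels. Once inside the epithelium, the integrin chain alphaE (CD103) pairs with beta7 and binds E-cadherin on epithelial cells, while loss of the sphingosine-1-phosphate receptor S1PR1 keeps cells from following that lipid back into lymph and blood.

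Cells were assigned to classes by marker genes that include none of the 9, so class names below mean a gate, not a sort. CD8ab T cells had UMIs of Cd8a and Cd8b1, CD8aa T cells of Cd8a without Cd8b1, and gamma-delta T cells of Trdc without Trac. The gates gave 70, 50, 226 and 877 CD8ab, 1512, 758, 2676 and 2402 CD8aa, 1527, 390, 1461 and 1814 gamma-delta and 6, 8, 58 and 86 CD4 T cells in saline 1, saline 2, PFF 1 and shared saline. There were 41, 90, 519 and 318 B cells, 2, 15, 28 and 16 type 1 dendritic cells (cDC1), 17, 64, 64 and 91 type 2 dendritic cells (cDC2) and 31, 3, 28 and 50 plasmacytoid dendritic cells (pDC). Enterocytes numbered 28, 293, 242 and 827. A further 12786 T cells, called other T, met none of the subclass gates, and 87.5% of them held Cd8a, Trdc and Trac together. Summed Cd3d, Cd3e and Cd3g stood at 2739 to 5289 UMIs per 1000000 (CPM) in CD8ab, CD8aa, gamma-delta and other T cells. In B cells they stood at 20.7 to 74.3 CPM. The T gate uses these same genes, and cells passing gates of several lineages were left out, so this difference follows from the gates. The cDC1 and cDC2 markers below are gate genes too. The gate for cDC1 was the least clean. Its cells had 2163, 904 and 2252 CPM of 4 cDC1 markers and 598, 1126 and 899 CPM of 6 cDC2 markers in saline 2, PFF 1 and shared saline, so that the latter were the higher in PFF 1, while cDC2 had 49.9 to 72.8 and 1418 to 1847 CPM. The cDC2 list includes Flt3 and Zbtb46, which cDC1 are known to express too. Levels below are CPM of all UMIs summed over the cells of a class in a library, given for sets of at least 5 cells. Ranges and orders cover the 15 classes with 3 or more such sets, which leaves out regulatory T cells (0, 1, 6 and 5 cells) and epithelial cells of no subclass (2, 2, 19 and 7 cells). They are listed in the order saline 1, saline 2, PFF 1 and shared saline. An SD over 4 sets of cells counts shared saline as the fourth. Levels were compared between classes for each gene and not between genes.

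Stretches just upstream of transcription starts are shown for 4 of the 6 members with an entry in the promoter table: the ligand Ccl25 and its receptor Ccr9, and Cxcr6 and Itga4, which like Ccr9 were lower in gamma-delta and CD8aa than in CD8ab T cells. They are RefSeq promoter sequences (GRCm38.p6), 5′ to 3′ on the gene's strand, cut back where they entered an annotated untranslated region or a member's exon. Capitals in the Ccl25 stretch mark the motif TATAAA, known from core promoters. Capitals in the Cxcr6 and Itga4 stretches mark the core letters bound by Runx factors, TGTGGT, which on the printed strand read ACCACA.
Ccl25, chr8:4349338-4349587, plus strand: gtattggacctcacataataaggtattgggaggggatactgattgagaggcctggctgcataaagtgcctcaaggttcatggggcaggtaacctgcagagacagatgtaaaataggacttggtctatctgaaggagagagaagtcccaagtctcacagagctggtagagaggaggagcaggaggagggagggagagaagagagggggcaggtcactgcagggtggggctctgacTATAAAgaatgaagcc
Ccr9, chr9:123766961-123767168, plus strand: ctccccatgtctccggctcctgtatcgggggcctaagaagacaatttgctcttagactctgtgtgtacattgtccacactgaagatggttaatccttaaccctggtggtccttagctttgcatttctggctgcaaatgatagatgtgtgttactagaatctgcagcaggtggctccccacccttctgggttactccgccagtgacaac
Cxcr6, chr9:123806227-123806474, plus strand: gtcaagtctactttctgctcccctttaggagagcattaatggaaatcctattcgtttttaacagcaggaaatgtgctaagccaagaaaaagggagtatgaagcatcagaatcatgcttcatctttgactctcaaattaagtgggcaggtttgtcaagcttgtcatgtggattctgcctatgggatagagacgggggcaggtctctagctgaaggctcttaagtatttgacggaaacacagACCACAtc
Itga4, chr2:79255176-79255425, plus strand: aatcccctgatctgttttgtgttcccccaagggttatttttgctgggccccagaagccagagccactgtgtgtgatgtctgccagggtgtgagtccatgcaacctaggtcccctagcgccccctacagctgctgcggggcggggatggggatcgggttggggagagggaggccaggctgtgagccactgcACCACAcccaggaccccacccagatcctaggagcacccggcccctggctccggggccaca

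The 6 members had 7 starts in that table. Both strands of the 250 bases before each start were searched for TGTGGT and TATAAA, which do not overlap each other. TGTGGT was found before the starts of Cxcr6, Itga4 and Gpr18, with its first base 10, 60 and 31 bases ahead of the start, and not in the windows of Ccr9, Ccl25 or Itgb7. It occurred in 14.0% of the same windows of all 32851 starts, and TATAAA in 12.4%. Ccl25 had both kinds of start. The one printed held no CpG, a feature it shared with 7.87% of all starts, and its TATAAA began 16 bases ahead of the start. The other Ccl25 start, at position 4325210 of chromosome 8, lay under 45 CpGs with 74.8% G and C, a CpG count reached by 0.405% of all starts. Which start was used cannot be told from 3′ counts.

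Ccl25, the chemokine that CCR9 recognises, was a gene of the epithelium (chr8:4325210-4360020, plus strand). In enterocytes it stood at 344, 690, 714 and 475 CPM. Saline 1 was lowest and PFF 1 highest, and saline 2 lay close to PFF 1. Crypt cells had 455, 593 and 385 CPM in saline 2, PFF 1 and shared saline, and goblet cells, which make mucus, 458, 264 and 400 CPM. Enteroendocrine cells, the hormone-producing cells, had 148, 114 and 65.5 CPM, below every goblet library, and a single cell gave 55.3%, 74.5% and 78.6% of those UMIs. Without that cell the level was 69.7, 34.3 and 16.3 CPM. Within libraries, Ccl25 was lower in crypt cells than in enterocytes (log2 fold change -0.82 ± 0.18 SE, adjusted p = 0.00518, edgeR's quasi-likelihood test with Benjamini-Hochberg adjustment, lower in 3 of 3 libraries). Without saline 2 that call was lost (adjusted p = 0.0825).

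T cells carried Ccl25 at a low and even level. Gamma-delta T cells had 42.4, 37.0, 40.2 and 50.3 CPM and CD8ab T cells 26.8, 26.2, 37.1 and 30.2 CPM. Over CD8ab, CD8aa, gamma-delta, CD4 and other T cells the range was 26.2 to 50.3 CPM, below every enterocyte value. It also lay below the enteroendocrine values, but not once the single cell above was left out. The few regulatory T cells had 2 UMIs in PFF 1 and 0 in shared saline. B cells had 6.90, 24.2, 17.6 and 22.7 CPM. Free RNA from broken epithelial cells gives UMIs in any droplet, so Ccl25 was set against 6 enterocyte genes (Fabp1, Apoa1, Apoa4, Alpi, Rbp2 and Apob). For each 1000 UMIs of those genes there were 7.55 to 21.9 UMIs of Ccl25 in enterocytes and 6.89 to 69.8 in crypt, goblet and enteroendocrine cells. In CD8ab, CD8aa, gamma-delta and other T cells there were 168 to 1455. In shared well 2 gamma-delta T cells had 52.2 CPM, with 42.5% of kept cells there epithelial, and in shared well 3 they had 50.7 CPM, with 0.0941%. The part of free RNA in the T cell counts was not tested. Ccl25 overlaps the first part of Elavl1, a gene on the other strand, by 204 bases, and the sources used here do not say whether counting used strand. Elavl1 stood at 126 to 138 CPM in gamma-delta T cells and 38.4 to 70.5 CPM in enterocytes, and its part in the T cell counts was not tested.

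**Figure D1:**
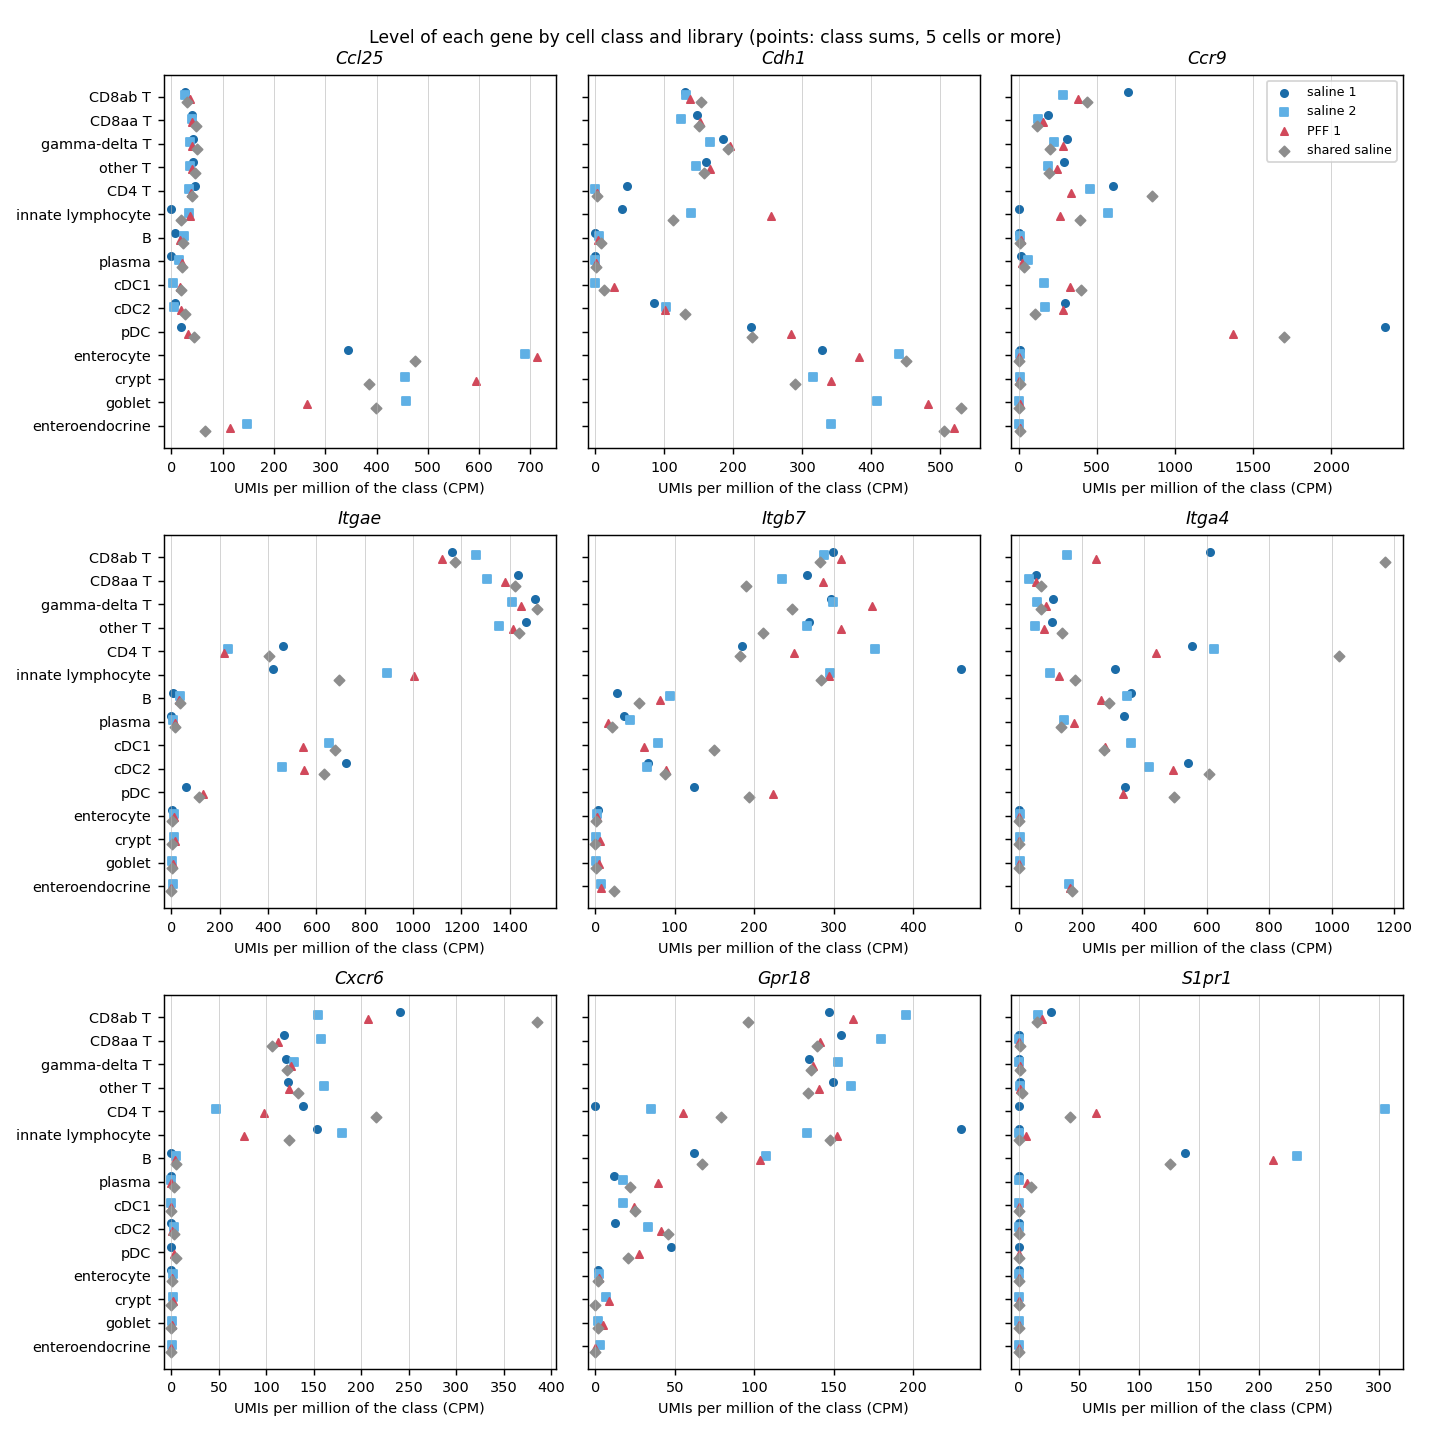
Level of each of the 9 genes (x axis, CPM of the class) in 15 marker-gated classes (y axis), with 1 point per library and class of 5 cells or more. Ccl25 is highest in epithelial classes, Ccr9 in plasmacytoid dendritic cells (1374 to 2345 CPM), Itgae in CD8 and gamma-delta T cells, and S1pr1 in B cells and, in saline 2, CD4 T cells.

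Cdh1 encodes E-cadherin, the adhesion molecule of epithelial junctions and the ligand of alphaE-beta7 (chr8:106603351-106670246, plus strand). It was highest in the epithelium: enterocytes had 328, 440, 382 and 450 CPM, and goblet cells had 408, 482 and 530 CPM in saline 2, PFF 1 and shared saline. Crypt cells, at 315, 341 and 290 CPM, were lower than enterocytes within libraries (log2 -0.85 ± 0.18 SE, adjusted p = 0.00343 by edgeR, 3 of 3 libraries). Ccl25 and Cdh1 were thus the 2 members called of 5 tested between crypt cells and enterocytes, where 41.7% of all genes tested were called in either direction, 19.8% higher and 21.9% lower in crypt cells.

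Cdh1 was also present in CD8 and gamma-delta T cells and in pDC, and its spread over the lymphocyte classes was uneven. Gamma-delta T cells had 185, 167, 195 and 193 CPM, and CD8ab T cells 129, 131, 137 and 153 CPM, with no overlap between those classes. The fitted difference was not called (log2 0.44 ± 0.15 SE, adjusted p = 0.114 by edgeR). How many of all genes had no overlap between them was not counted. CD4 T cells had 46.2, 0, 2.21 and 2.14 CPM, and the first of these values was 1 UMI in 6 cells. B cells had 0, 6.06, 3.71 and 7.99 CPM and plasma cells at most 1.59 CPM. In pDC the level was 225, 283 and 227 CPM in saline 1, PFF 1 and shared saline, above every gamma-delta library, and in cDC2 it was 85.1, 103, 101 and 130 CPM. Per 1000 UMIs of the enterocyte genes, Cdh1 gave 7.20 to 11.9 UMIs in enterocytes, 842 to 5364 in CD8ab, CD8aa, gamma-delta and other T cells and 7600 to 14667 in pDC. Apart from that 1 UMI in saline 1, CD4 T and B cells of the same libraries had at most 7.99 CPM. In the largest CD4 set, shared saline, 1 UMI of Cdh1 was found in 86 cells. The part of free RNA in the Cdh1 counts of T cells and pDC was not tested.

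**Figure D2:**
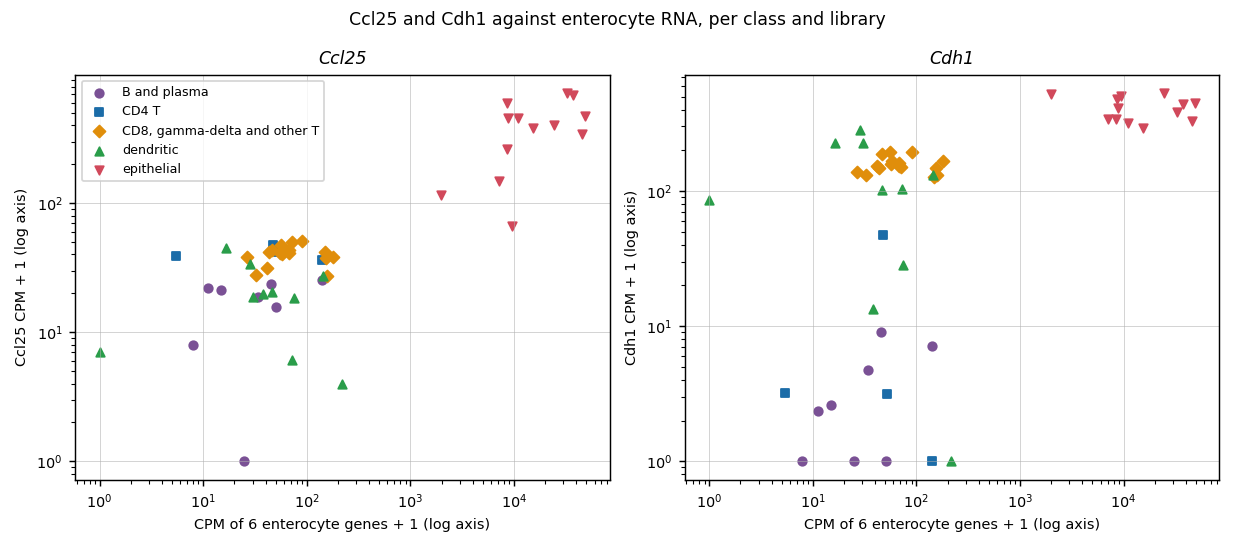
Ccl25 (left) and Cdh1 (right) against the summed level of 6 enterocyte genes, both in CPM plus 1 on log axes, with 1 point per class and library. Epithelial points lie at the upper right. CD8, gamma-delta and other T cells lie at 25.5 to 178 CPM of enterocyte genes with Cdh1 at 125 to 195 CPM. CD4 T and B cells lie at 4.42 to 141 CPM of enterocyte genes. Their Cdh1 is at most 7.99 CPM, apart from 46.2 CPM, from 1 UMI, in CD4 T cells of saline 1.

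Ccr9, the receptor for CCL25 (chr9:123678439-123784330, plus strand), was highest in pDC, which are known to use it to enter the small intestine. pDC had 2345, 1374 and 1699 CPM in saline 1, PFF 1 and shared saline, above every other set of at least 5 cells. The regulatory T cells of PFF 1 and shared saline, 6 and 5 cells, had 938 and 608 CPM from 43 and 19 UMIs. CD4 T cells had 601, 458, 332 and 851 CPM and overlapped both these and CD8ab T cells, at 696, 279, 378 and 436 CPM. A single CD4 T cell gave 53.8% and 84.6% of the UMIs in saline 1 and saline 2, and without it the levels were 361 and 85.8 CPM. Gamma-delta T cells had 308, 225, 284 and 196 CPM, and CD8aa T cells had 184, 121, 151 and 117 CPM. In each of the 4 sets the order was CD8ab, gamma-delta, CD8aa. B cells had 0, 6.06, 12.9 and 5.53 CPM, and no enterocyte, crypt, goblet or enteroendocrine value passed 8.01 CPM. Epithelial cells of no subclass held 1 UMI in PFF 1 and 0 in shared saline. After every cell was thinned to 1000 UMIs, 77.4%, 64.3% and 68.0% of pDC held a UMI of Ccr9 in saline 1, PFF 1 and shared saline, against 0%, 1.14%, 1.35% and 0.319% of B cells in the 4 sets. Unthinned, all pDC held one. Median depth was 5319 to 13477 UMIs in those pDC and 3355 to 7144 in B cells.

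Within libraries, Ccr9 was lower in CD8aa than in CD8ab T cells (log2 -1.45 ± 0.15 SE, adjusted p = 2.71e-07 by edgeR, 3 of 3 libraries). The gamma-delta difference was smaller (log2 -0.63 ± 0.15 SE, adjusted p = 0.0172, 3 of 3 libraries) and rested on single libraries: the adjusted p was 0.609 without saline 1 and 0.0519 without PFF 1. Against cDC2, at 292, 165, 285 and 99.9 CPM, pDC were higher by log2 2.91 ± 0.21 SE (adjusted p = 3.83e-15, 3 of 3 libraries). cDC1, a class specialised in cross-presentation, had 158, 325 and 397 CPM in saline 2, PFF 1 and shared saline and overlapped cDC2. Ccr9 lies on the same strand as Gm17200, a long non-coding RNA, over 22608 bases and overlaps Lztfl1 on the other strand, so reads of these genes could be shared if counting allowed it.

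Itgae, the alphaE chain (chr11:73090583-73147446, plus strand), was high in every CD8 and gamma-delta T cell set. Gamma-delta T cells had 1502, 1410, 1445 and 1514 CPM (mean 1468 ± 49.1 SD, n = 4 sets). CD8aa T cells had 1432, 1304, 1378 and 1421 CPM, and CD8ab T cells had 1160, 1261, 1119 and 1172 CPM (mean 1178 ± 59.8 SD, n = 4). The CD8ab values lay below every other CD8 or gamma-delta value, yet the fitted differences were not called (gamma-delta against CD8ab log2 0.29 ± 0.16 SE, adjusted p = 0.547). CD4 T cells had 462, 235, 217 and 404 CPM. A single cell gave 60% of these UMIs in saline 1 and 100% in saline 2, from 10 and 20 UMIs. Innate lymphocytes had 422, 891, 1005 and 693 CPM. Their gate asked for no UMI of Cd3d, Cd3e or Cd3g and for Tyrobp, Fcer1g and any of Ncr1, Klrb1c and Eomes. T cell receptor genes were not part of it.

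The dendritic classes parted on Itgae. cDC1 had 651, 545 and 676 CPM in saline 2, PFF 1 and shared saline, and cDC2 had 723, 458, 550 and 629 CPM, so both conventional classes overlapped. pDC had 59.2, 130 and 116 CPM, lower than cDC2 by log2 -2.68 ± 0.21 SE (adjusted p = 6.75e-14 by edgeR, 3 of 3 libraries). B cells had 6.90, 34.9, 30.7 and 36.9 CPM, and enterocyte, crypt, goblet and enteroendocrine cells at most 14.2 CPM. Epithelial cells of no subclass had 80.4 CPM in PFF 1, from 1 UMI, and 289 CPM in shared saline, from 14 UMIs in 2 of 7 cells. Their cytotoxic genes (Gzma, Gzmb and Ccl5) stood at 3777 and 19416 CPM. Set against 1000 UMIs of those cytotoxic genes, Itgae gave 24.3 to 47.6 UMIs in B cells and 28.3 to 66.8 in CD8ab, CD8aa, gamma-delta and other T cells. In cDC2 the ratio was 2344 to 4760. A single B cell gave 91.3%, 30.6% and 23.3% of the Itgae UMIs of B cells in saline 2, PFF 1 and shared saline. Without it the levels were 3.08, 21.4 and 28.5 CPM. In saline 1 the B cells held 1 UMI. The part of free T cell RNA in the B cell counts was not tested. At 1000 UMIs per cell, 65.7%, 66.0%, 63.3% and 64.4% of CD8ab and 76.0%, 71.3%, 74.5% and 76.6% of gamma-delta T cells held a UMI, against 0%, 2.27%, 2.13% and 1.60% of B cells. Unthinned, the shares were 93.7% to 100% in CD8ab and 96.1% to 98.9% in gamma-delta T cells.

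Itgb7 makes the beta chain that both integrins share (chr15:102215995-102231944, minus strand), and its classes ran into each other. CD8ab T cells had 299, 288, 310 and 282 CPM, gamma-delta T cells 297, 299, 349 and 248 CPM and CD4 T cells 185, 352, 250 and 182 CPM. pDC had 124, 223 and 193 CPM and cDC2 66.8, 64.6, 89.1 and 87.8 CPM, a difference of log2 1.01 ± 0.22 SE (adjusted p = 0.000163 by edgeR, 3 of 3 libraries). B cells had 27.6, 94.0, 81.2 and 55.3 CPM, below every CD8ab value. Itgb7 has no overlapping gene in GENCODE vM21.

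Itga4, the alpha chain that pairs with beta7 for entry from blood (chr2:79255426-79333123, plus strand), was high in CD4 T cells, dendritic cells and B cells and low in CD8aa and gamma-delta T cells. CD4 T cells had 555, 622, 438 and 1022 CPM, the few regulatory T cells 1091 and 640 CPM in PFF 1 and shared saline, cDC2 541, 416, 493 and 606 CPM and B cells 359, 346, 264 and 286 CPM. Gamma-delta T cells had 107, 58.5, 87.6 and 70.4 CPM, and CD8aa T cells had 54.5, 32.6, 55.8 and 69.7 CPM. CD8ab T cells were far from uniform, at 611, 152, 245 and 1170 CPM. Every CD8ab value was above every gamma-delta and CD8aa value, but for gamma-delta T cells this rested on a single CD8ab cell of saline 2. Without that cell the saline 2 level was 94.6 CPM, below the 107 CPM of gamma-delta T cells in saline 1. Itga4 was lower than in CD8ab T cells by log2 -1.79 ± 0.17 SE in gamma-delta T cells (adjusted p = 9.47e-09, 3 of 3 libraries) and by log2 -2.56 ± 0.19 SE in CD8aa T cells (adjusted p = 1.26e-09, 3 of 3 libraries).

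The CD8ab level of Itga4 differed between sets of saline cells by more than counting error. The 3 shared wells had 1078, 724 and 1193 CPM, with exact 95% Poisson intervals of 947 to 1222, 617 to 843 and 1164 to 1222 CPM. Saline 2 had 152 CPM (124 to 186), and 39.4% of its 99 UMIs came from a single cell. These intervals cover counting error only. The cytotoxic genes moved the other way, at 17359, 37244, 21422 and 18891 CPM in CD8ab T cells, highest in saline 2, where Itga4 was lowest, and their part in the difference was not tested. Ccr9 and Cxcr6 in CD8ab T cells were also lowest in saline 2.

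**Figure D3:**
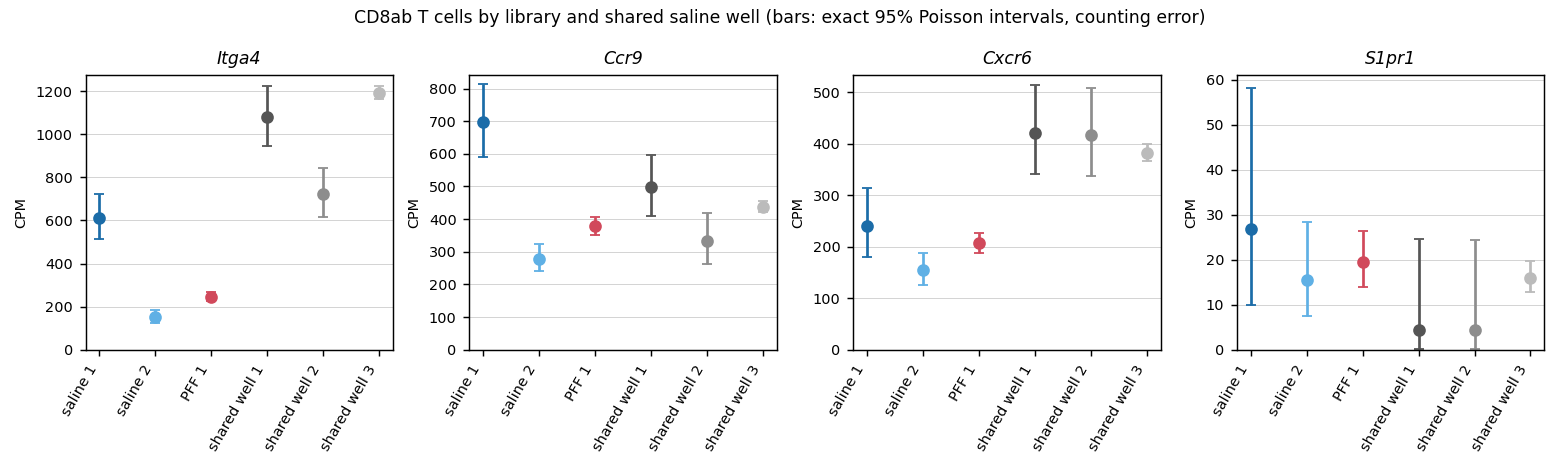
Itga4, Ccr9, Cxcr6 and S1pr1 in CD8ab T cells (y axis, CPM) in the unshared well of saline 1 and saline 2, in PFF 1 and in each of the 3 shared saline wells, with exact 95% Poisson intervals for counting error. Itga4 spans 152 CPM in saline 2 to 1193 CPM in shared well 3, and Cxcr6 is higher in each shared well (383 to 421 CPM) than in the other sets.

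Cxcr6, the receptor for CXCL16 and a marker of tissue-resident T cells (chr9:123806475-123811760, plus strand), was a gene of T cells and innate lymphocytes here. CD8ab T cells had 241, 154, 207 and 386 CPM, gamma-delta T cells 121, 130, 126 and 121 CPM, CD8aa T cells 118, 158, 112 and 106 CPM and CD4 T cells 139, 46.9, 97.3 and 216 CPM. Innate lymphocytes had 76.2 to 179 CPM. In B, plasma, dendritic and epithelial classes no value passed 5.16 CPM. Within libraries Cxcr6 was lower in gamma-delta than in CD8ab T cells (log2 -0.65 ± 0.15 SE, adjusted p = 0.0111 by edgeR, 3 of 3 libraries). It was also lower in CD8aa T cells (log2 -0.61 ± 0.17 SE, adjusted p = 0.0457), although saline 2 went the other way. Without saline 1 the adjusted p was 0.109 and 0.417, and without PFF 1 it was 0.301 and 0.759. DESeq2 gave 0.103 and 0.191. The Cxcr6 gene lies wholly inside Fyco1, which is on the other strand and stood at 80.1 to 127 CPM in CD8ab T cells and 16 to 22.2 CPM in enterocytes. Fyco1 stood at 72.7 to 124 CPM in pDC and 51.2 to 74.7 CPM in cDC2, where Cxcr6 was at most 5.16 and 2.80 CPM. The part of Fyco1 in the Cxcr6 counts was not tested. Cxcr6 begins 22144 bases after the end of Ccr9.

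Gpr18, a lipid-sensing receptor known to help CD8 and gamma-delta T cells populate the intestinal epithelium (chr14:121911253-121915781, minus strand), was nearly flat over the CD8 and gamma-delta classes. CD8aa T cells had 155, 180, 142 and 140 CPM, gamma-delta T cells 135, 153, 137 and 136 CPM and CD8ab T cells 147, 196, 162 and 95.9 CPM. Innate lymphocytes had 230, 133, 152 and 148 CPM, B cells 62.1, 108, 103 and 67.0 CPM and CD4 T cells 0, 35.2, 55.3 and 79.1 CPM. CD8ab and CD4 T cells did not overlap, and CD8ab was higher by log2 1.25 ± 0.34 SE (adjusted p = 0.0137 by edgeR, 4 of 4 sets). That call was lost without saline 1, saline 2 or PFF 1, at adjusted p of 0.151, 0.0528 and 0.331, with DESeq2 (0.0925) and with T cell gates at 2 UMIs (0.250). Gpr18 lies within Ubac2 on the other strand, which stood at 459 to 570 CPM in CD8ab T cells and 37.0 to 44.0 CPM in enterocytes, where Gpr18 was at most 2.38 CPM.

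S1pr1, the exit receptor (chr3:115710433-115715072, minus strand), was a B cell gene here, at 138, 232, 212 and 126 CPM (mean 177 ± 52.8 SD, n = 4). CD4 T cells had 0, 305, 64.2 and 42.8 CPM, from 0, 26, 29 and 20 UMIs, and saline 2's value came from 6 of 8 cells. CD8ab T cells had 26.8, 15.4, 19.5 and 15.1 CPM from 6, 10, 42 and 89 UMIs. Gamma-delta T cells had 1, 1, 13 and 5 UMIs in all, at most 1.04 CPM, and CD8aa T cells had 2, 1, 5 and 11 UMIs, at most 0.779 CPM. Both lay below every CD8ab value. The 2161 dendritic and epithelial cells in these classes held no UMI of S1pr1, which allows a level of up to 0.0765 CPM over their summed UMIs.

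The fitted S1pr1 differences were large but rested on few UMIs in the lower class. S1pr1 was lower than in CD8ab T cells by log2 -4.87 ± 0.58 SE in gamma-delta T cells (adjusted p = 1.06e-06, 3 of 3 libraries) and by log2 -6.49 ± 0.64 SE in CD8aa T cells (adjusted p = 2.38e-07, 3 of 3 libraries). It was higher in B than in CD8ab T cells by log2 3.58 ± 0.23 SE (adjusted p = 1.52e-07, 3 of 3 libraries). At 1000 UMIs per cell 7.50%, 19.3%, 19.1% and 14.4% of B cells held a UMI, and unthinned 26.8%, 63.3%, 65.1% and 36.2% did, a share that moved with depth. S1pr1 overlaps no other annotated gene.

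Within CD8ab T cells, cells with and without a UMI of Itgae at 1000 UMIs each were compared as counts, without a test. Of Itgae-positive cells, 0 of 46, 0 of 33, 0 of 143 and 2 of 565 held S1pr1. Of Itgae-negative cells, 3 of 24, 1 of 17, 1 of 83 and 5 of 312 did. The share was lower beside Itgae in each of the 4 sets, on 12 UMI-positive cells in all. Gamma-delta T cells showed no such order: S1pr1 was held by 3 of 1384 Itgae-positive and 0 of 422 Itgae-negative cells in shared saline, by 0 of 1083 and 1 of 370 in PFF 1, and by none in saline 1 or saline 2. Itgae with Cdh1 was not among the pairs fixed beforehand. Of Itgae-positive CD8ab T cells 19.6%, 21.2%, 14.7% and 16.1% held Cdh1, against 8.33%, 5.88%, 7.23% and 10.3% of the others. In saline 1 and saline 2 the shares of the others were 2 of 24 and 1 of 17 cells. In gamma-delta T cells the shares with Cdh1 were 18.4%, 12%, 16.5% and 17.5% against 15.1%, 14.0%, 14.6% and 17.8%, with no common direction. Ccr9 in CD8ab T cells had none either, at 50%, 9.09%, 24.5% and 31.9% against 45.8%, 17.6%, 26.5% and 30.1%. Nor had Cxcr6 beside Itgae there, at 21.7%, 21.2%, 18.2% and 33.8% against 20.8%, 17.6%, 19.3% and 30.4%. In gamma-delta T cells Ccr9 was held by 22.3%, 18.0%, 19.9% and 14.5% of Itgae-positive cells. The Itgae-negative cells had 24.2%, 20.6%, 24.3% and 17.3%, higher in each of the 4 sets, without a test. Itga4 in CD8ab T cells with and without Itgb7 was held by 35.7%, 0%, 19.7% and 58.2% against 33.9%, 12.5%, 21.25% and 58.3%. Itga4 beside Itgae in CD8ab T cells, a pair not fixed beforehand, was at 30.4%, 6.06%, 18.9% and 57.3% against 41.7%, 17.6%, 24.1% and 59.9%. In saline 2 these were 2 of 33 and 3 of 17 cells. In CD4 T cells 10 of 15 Itgae-positive and 7 of 43 other cells held Ccr9 in PFF 1. In shared saline 12 of 23 and 24 of 62 did. Other pairs in gamma-delta and CD4 T cells are not reported here.

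Counted over the 9 members, gamma-delta and CD8ab T cells differed in 4, all lower in gamma-delta T cells: Ccr9, Itga4, Cxcr6 and S1pr1. Of all genes tested, 3% were called there in either direction, 0.862% higher and 2.14% lower, and the members' median log2 difference was -0.27 against 0.01 over all genes tested. CD8aa against CD8ab T cells called the same 4 symbols, again all lower, where 3.84% of genes were called, 1.46% higher and 2.37% lower. That comparison was added after the data were seen and shares its CD8ab cells with the one before. CD8ab against CD4 T cells called 5 of 9, where 6.49% of genes were called, 3.75% higher and 2.75% lower. Itgae was higher in CD8ab T cells (log2 2.01 ± 0.29 SE, adjusted p = 3.48e-06 by edgeR, 4 of 4 sets), as were Cdh1 (log2 5.53 ± 0.56, adjusted p = 1.33e-09), Cxcr6 (log2 1.08 ± 0.28, adjusted p = 0.00922) and Gpr18. S1pr1 was lower (log2 -2.17 ± 0.43, adjusted p = 0.000426) in 3 of 4 sets, a call lost with DESeq2 (adjusted p = 0.0825) and with T cell gates at 2 UMIs (adjusted p = 0.159). Cxcr6 lost its call there without saline 1 (adjusted p = 0.0573) and without PFF 1 (adjusted p = 0.180), and with gates at 2 UMIs (adjusted p = 0.0613). Itgb7, Itga4, Ccr9 and Ccl25 were not called. This comparison used few CD4 T cells, with 6 and 8 in saline 1 and saline 2.

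B against CD8ab T cells called 7 of 9, with S1pr1 higher and Ccr9, Itgae, Itgb7, Cdh1, Cxcr6 and Gpr18 lower, where 32.5% of genes were called, 14.5% higher and 18% lower. Itga4 and Ccl25 were not called. The Gpr18 call (log2 -0.65 ± 0.16 SE, adjusted p = 0.00842 by edgeR) was lost without saline 2 (adjusted p = 0.119) and without PFF 1 (adjusted p = 0.0981), with DESeq2 (0.146) and with gates at 2 UMIs (0.0518). Innate lymphocytes against CD8ab T cells called 1 of 8 tested, Itga4 (log2 -1.50 ± 0.32 SE, adjusted p = 0.0125, lower in 4 of 4 sets), where 3.2% of genes were called, 1.58% higher and 1.61% lower. The adjusted p was 0.0854 without saline 1 and 0.140 without PFF 1.

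pDC against cDC2 called 5 of 7 tested, where 40.8% of genes were called, 19.4% higher and 21.4% lower. Ccr9, Itgb7 and Cdh1 (log2 1.02 ± 0.21 SE, adjusted p = 9.35e-05 by edgeR) were higher in pDC, and Itgae and Itga4 (log2 -0.66 ± 0.17 SE, adjusted p = 0.0015) were lower, each in 3 of 3 sets. cDC1 against cDC2 called 1 of 7 tested, Cdh1, where 5.4% of genes were called, 3.38% higher and 2.03% lower. cDC1 had 0, 27.1 and 12.4 CPM of Cdh1 in saline 2, PFF 1 and shared saline, lower than cDC2 by log2 -2.81 ± 0.60 SE (adjusted p = 0.0384, 3 of 3 sets). That call was lost without saline 2 (adjusted p = 0.103) and without shared saline (adjusted p = 0.317).

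**Figure D4:**
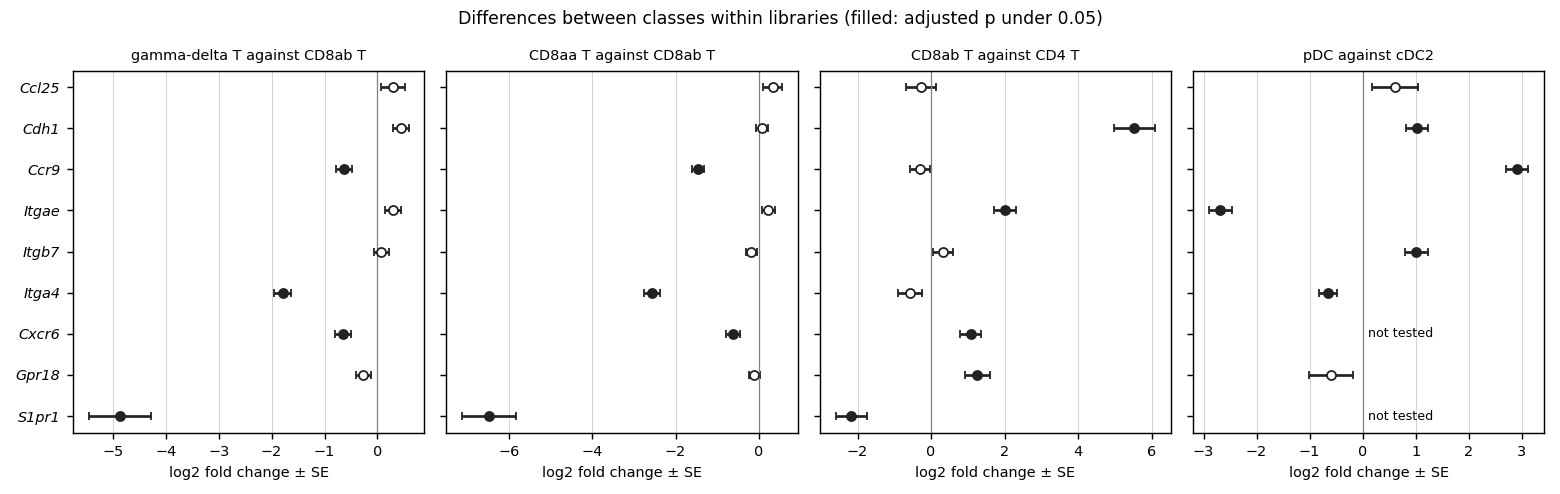
Log2 fold change ± SE (x axis) of each gene (y axis) in 4 comparisons between classes of the same libraries, with filled points for an adjusted p under 0.05. Ccr9, Itga4, Cxcr6 and S1pr1 lie left of 0 in gamma-delta and CD8aa against CD8ab T cells, and pDC stand apart from cDC2 by more Ccr9, Itgb7 and Cdh1 and less Itgae.

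A list of 51 other homing, adhesion, egress, residency and niche genes was counted in the same comparisons. Beside each count stand the shares of all genes tested that were called higher and lower. In gamma-delta against CD8ab T cells 0 of 32 tested were higher and 6 lower (all genes: 0.862% and 2.14%). Among the lower were Itgal, the alpha chain of LFA-1 (log2 -2.68 ± 0.25 SE), and Cd44, a hyaluronan receptor (log2 -0.90 ± 0.22 SE). In CD8aa against CD8ab T cells 1 of 34 was higher and 9 lower (all genes: 1.46% and 2.37%). Among the lower was Itgal (log2 -3.52 ± 0.24 SE). In CD8ab against CD4 T cells 5 of 32 were higher and 9 lower (all genes: 3.75% and 2.75%). The follicle and marrow receptors Cxcr5 (log2 -5.48 ± 0.77 SE), Cxcr4 (log2 -4.37 ± 0.80 SE) and Gpr183 (log2 -3.38 ± 0.39 SE) were the largest. In B against CD8ab T cells 12 of 34 were higher and 14 lower (all genes: 14.5% and 18%). The chemokine receptor Ccr6 had a mean of 191 CPM in B cells and 0 in CD8ab T cells, and Cxcr5 and Cxcr4 were also higher.

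In innate lymphocytes against CD8ab T cells 3 of 26 were higher and 0 lower (all genes: 1.58% and 1.61%). The higher ones were Ccr2, Itga2 and Itgb1. In pDC against cDC2 11 of 26 were higher and 8 lower (all genes: 19.4% and 21.4%). Cxcr3, a chemokine receptor, had 54.9 CPM in pDC and 2.03 CPM in cDC2, and Cxcl16, the ligand of CXCR6, had 0 in pDC and 168 CPM in cDC2. In cDC1 against cDC2 3 of 30 were higher and 5 lower (all genes: 3.38% and 2.03%), with Itga1 higher and Prdm1 and Rgs1 lower. In crypt cells against enterocytes 4 of 23 were higher and 9 lower (all genes: 19.8% and 21.9%). The transcription factor Prdm1 had 0.385 CPM in crypt cells and 35.0 CPM in enterocytes, and Cxcl16 had 4.89 and 23.3 CPM.

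The genes whose level followed each member most closely were found over 18 points, the sums of 6 classes in 3 libraries, from 5800 genes. The classes were CD8ab, CD8aa, gamma-delta and other T cells, B cells and enterocytes. Dendritic and CD4 T cells took no part, so pDC, where Ccr9 was highest, are not covered. Points of a library share its depth, and points of a class share its gate, so the Pearson r below describe the classes and carry no test. Ccr9 was most like Cd226 (r = 0.993) and Smurf2 (0.991). Itgae was most like Ctsw, Nkg7 and Cd96 (each 0.997), genes of cytotoxic lymphocytes. Itga4 was most like Sh3kbp1 (0.971), Cd44 (0.971) and Ifi214 (0.947), the loosest of the sets named here. Cdh1 was like B4galnt2 (0.984) and Mical2 (0.976), Cxcr6 most like Cd160, Prkcq and Xcl1, and S1pr1 most like Cmah, Tspan32 and Slamf6. Itgb7 was most like Mdfic, Sh2d3c and Cyth4, Gpr18 most like Susd3, Hsd11b1 and Il2rg, and Ccl25 most like Bsg, Svip and Fzd5. These names depend on the 10 CPM added before taking logs. With 50 CPM, 0 of the 3 genes given for Itgae and 1 of 3 for Ccl25 were still among the closest 3. With 1 CPM, 1 of 3 was for each of Itgb7, Cxcr6 and Gpr18. In all other cases 2 or 3 were.

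Cells after fibrils were compared with cells after saline in the 6 classes with at least 20 cells in each of 3 libraries, with 1 PFF library assumed to vary as the 2 saline libraries did. No member was called in CD8ab (0 of 9 tested), CD8aa (0 of 8), gamma-delta (0 of 8) or other T cells (0 of 9), B cells (0 of 6) or enterocytes (0 of 5). Of all genes tested, 0.153%, 0.11%, 0%, 0.0136%, 0.149% and 0% were called in those classes. No member reached an unadjusted p under 0.05 by edgeR, where 1.82%, 5.69%, 3.74%, 2.7%, 1.11% and 1.39% of genes did, and DESeq2 called none. The lowest member p was 0.0737, for Itga4 in CD8aa T cells (log2 0.38 ± 0.20 SE).

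Itgb7 lay above every saline set after fibrils in each large T class: 286 CPM in PFF 1 against 266, 235 and 190 in CD8aa T cells, 349 against 297, 299 and 248 in gamma-delta T cells and 309 against 268, 267 and 211 in other T cells. The fitted differences were log2 0.20 ± 0.19, 0.22 ± 0.18 and 0.22 ± 0.18 SE and were not called. These classes come from the same PFF library, so they do not repeat each other independently. How many of all genes lay above every saline set was not counted. Against saline 1 alone, of the same batch, they were log2 0.15, 0.27 and 0.26. Cdh1 was likewise highest in PFF 1 in these classes, by log2 0.17 ± 0.18, 0.14 ± 0.18 and 0.13 ± 0.17 SE. In CD8ab T cells it was not, at 137 CPM in PFF 1 against 153 CPM in shared saline. Ccr9 and Itga4 in CD8ab T cells had no settled direction. Ccr9 was log2 -0.82 against saline 1, of the same batch, and 0.45 against saline 2, and Itga4 was -1.25 and 0.69. Enterocyte Ccl25 was 714 CPM in PFF 1 and 344, 690 and 475 CPM in saline 1, saline 2 and shared saline, a difference from saline 2 smaller than that among the saline sets. Median enterocyte depth was 16651, 3825, 2205 and 13567 UMIs in saline 1, saline 2, PFF 1 and shared saline.

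**Figure D5:**
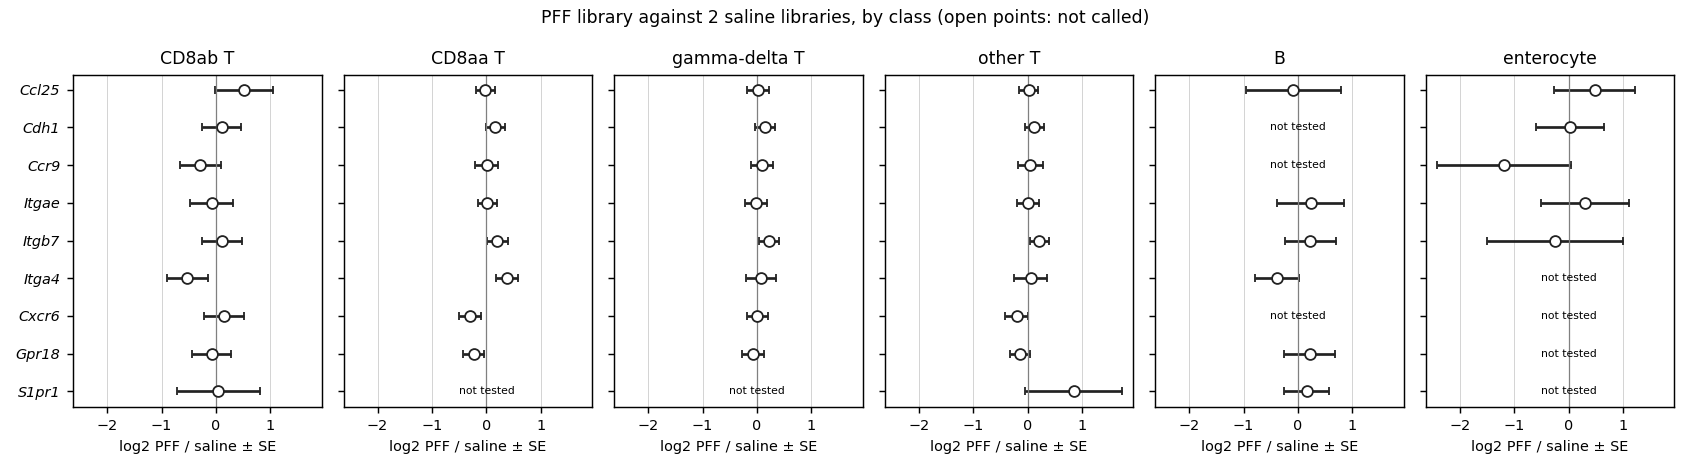
Log2 fold change ± SE of PFF 1 against saline 1 and saline 2 (x axis) for each gene (y axis) in 6 classes. Every tested point is open, meaning that none passed an adjusted p of 0.05, and the T cell values lie between -0.53 and 0.85.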

How the data were processed

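Raw counts were used as deposited: whole-number UMI counts per gene and cell barcode, which per the file headers were written by Cell Ranger 7.0.0. The build, mm10, comes from the submitters' processing notes. The sources used here do not give the annotation, the use of strand in counting, the cell calling or how wells were joined.

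The members and gene lists were chosen with earlier results of these data known. Cells with at least 500 UMIs, 200 genes and at most 15% mitochondrial UMIs were gated by 79 marker genes, none of them a member. No doublet caller was run, and 982 cells that passed gates of more than 1 lineage were left out, among them 268 passing T and B and 211 passing cDC1 and pDC gates. Sums of counts over the cells of a class in a library were tested, and levels are CPM of those sums with exact 95% Poisson intervals. A count of 0 was taken to allow up to 3 counts. Shares were recomputed after thinning each cell to 1000 UMIs.

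Differences were tested in edgeR 4.0.16 (R 4.3.3) by the quasi-likelihood test with TMM scaling, a low-count filter and Benjamini-Hochberg adjustment over all genes tested, at 0.05. Comparisons between classes kept the library as a block, since both classes of a pair came from the same library. Comparisons against CD8ab T cells for gamma-delta, CD8aa and B cells used saline 1, saline 2 and PFF 1. The others had too few cells for this, and used libraries with at least 5 cells of both classes, with shared saline as a further library. That choice, and the CD8aa comparison, were made after the data were seen. Regulatory T cells were too few to be compared. The test was checked on simulated data. Alternatives included DESeq2 1.42.0, other filters and gates, and leaving out each library.

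Named genes were every member; for each member the 3 genes with the highest Pearson r of log2(CPM + 10), leaving out markers and members; and, of the list of 51 genes, the 3 called genes per comparison with the largest fold change at 20 CPM or more in a class. Some genes that this rule names are not reported here. Gene positions are GRCm38, GENCODE vM21. Python 3.11.15, numpy 2.4.6, pandas 2.3.3 and scipy 1.17.1 were used.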

Additional observations from a re-analysis of the deposited data

How the results depend on the processing

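The number of members called changed with the processing in several comparisons. Gamma-delta against CD8ab T cells called 4, but 2 with DESeq2, 2 with no replicate block (the library left out of the fit) and 2 to 5 when single libraries were left out. CD8ab against CD4 T cells called 5, but 3 with DESeq2, 2 with gates at 2 UMIs and 3 to 4 with single libraries left out. Innate lymphocytes against CD8ab T cells called 1, but 3 with no low-count filter, 2 with gates at 2 UMIs, 0 with no replicate block and 0 to 2 with single libraries left out. cDC1 against cDC2 called 1, but 2 with no low-count filter, 0 with the shared wells left out and 0 to 2 with single libraries left out. Crypt cells against enterocytes called 2, and 1 to 2 with single libraries left out. The cause was not tested. Leaving out single libraries gave 6 to 8 calls in B, 3 to 4 in CD8aa and 5 to 6 in pDC comparisons, against 7, 4 and 5. DESeq2 and the fit without the block also lost Ccr9 in gamma-delta T cells (adjusted p = 0.0809 and 0.329). Of 102 alternative counts between classes 83 stayed within 1.5 times the reported one and 19 did not. No called member changed direction in any of these alternatives. Fibrils against saline stayed at 0 calls except with the saline files as deposited, which called 6 members in CD8ab, 1 in CD8aa, 3 in gamma-delta and 2 in other T cells and 4 in B cells. There the same cells stand in both saline libraries, which narrows their spread by construction. Without saline replicate 1, the log2 differences in CD8ab T cells turned to 0.45 for Ccr9 and 0.69 for Itga4, and without saline replicate 2 they were -0.82 and -1.25. No paired analysis was possible because PFF and saline share only replicate number 1. Depth limits the low members most: S1pr1 rested on 8 UMIs in CD8aa T cells of the 3 tested libraries.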

Other observations

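Enteroendocrine cells were the epithelial class with Itga4. They had 161, 163 and 168 CPM in saline 2, PFF 1 and shared saline, from 165, 67 and 36 UMIs, while no enterocyte, crypt or goblet value passed 4.07 CPM. The UMIs came from few cells: 8 of 22, 4 of 11 and 1 of 13 held any, and a single cell gave 60%, 50.7% and 100% of them. Itgae, abundant in T cells, was at most 4.87 CPM in the same cells.

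Macrophage-gated cells (at least 2 of C1qa, C1qb and C1qc) numbered 11, 43, 101 and 76 in saline 1, saline 2, PFF 1 and shared saline and entered no comparison above. Itga4, which marks cells that can enter from blood, stood at 364, 393, 216 and 450 CPM in them, lowest in PFF 1. Itgae stood at 463, 70.5, 90.0 and 153 CPM, and the highest value, in saline 1, came from 14 UMIs. Cxcr6 was at 0, 0, 5.14 and 0 CPM.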
